A study of Arabidopsis thaliana with 12 samples.

Results

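Divergent promoters are the stretches between 2 protein-coding genes that lie head to head, so that their transcription start sites (TSSs) face away from each other and share the sequence between them. The binding of SOB3 to these stretches was examined in chromatin immunoprecipitation sequencing (ChIP-seq) of Arabidopsis thaliana. Overlapping peaks of 9 lists were merged into sites, with 1 shared bp sufficing. A site was kept if its centre lay between the TSSs of such a gene pair, with the TSSs at most 2000 bp apart and no other gene between them. Of 28285 nuclear sites, 2624 met this rule. They lay in 2226 of the 3411 divergent gaps that the annotation holds.

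SOB3 (SUPPRESSOR OF PHYTOCHROME B-4 #3) is an AT-hook protein of the nucleus that restrains elongation of the seedling stem. All plants were Columbia seedlings that carried the ProSOB3::SOB3-GFP transgene, driven by the SOB3 promoter, in the sob3-4 mutant background. They were grown with 8 h of light and 16 h of dark and harvested whole at ZT4 and ZT9, when 5 days old, and at ZT24, when 6 days old, where ZT counts hours from lights on. Each time point had 3 ChIP replicates, precipitated with an antibody to GFP, and 1 input of unprecipitated chromatin. One transgenic line was used, each sample pooled seedlings, and no plants without GFP were analysed here.

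Head-to-head gene pairs are common in compact plant genomes. The shared promoter can serve both genes, which may be expressed together or independently of each other. Plant promoters of housekeeping genes often hold site II elements, short words bound by TCP transcription factors, and telo boxes, which are frequent in promoters of ribosomal protein genes. The G-box is bound by bHLH and bZIP factors, among them the PIF proteins of light signalling. AT-hook proteins bind the minor groove of AT-rich DNA.

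Sequences from the RefSeq annotation of TAIR10.1, whose nuclear chromosomes are those of TAIR10, show what these promoters look like. All are given on the plus strand and start next to the TSS of the left-hand gene unless a summit window is stated. Capitals mark 4 kinds of words on either strand, which are GGNCCA, the site II words TGGGCC and TGGGCT, the G-box CACGTG and the telo box AAACCCTA. GGNCCA and TGGGCC overlap, since TGGGCC read on the other strand is a GGNCCA word. The first set is the 4 shortest gaps with a site in all 9 lists, in which a single short stretch is the whole sequence between the TSSs.
AT1G19140/Lhca6 (chr1:6612610-6612629): ataaagaaccccattaccat
AT4G33400/SPPL1 (chr4:16080722-16080759): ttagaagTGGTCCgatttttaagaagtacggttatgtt
AT1G54050/ASIL1 (chr1:20180567-20180609): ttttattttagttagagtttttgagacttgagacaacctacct
AT3G09850/AT3G09860 (chr3:3025946-3025992): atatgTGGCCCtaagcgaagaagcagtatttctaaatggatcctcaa

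The second set is whole gaps in which site II, G-box or telo box words lay between the TSSs. The first 3 belong to sites whose rank by fold enrichment changed between time points.
AT2G45730/PEX11D (chr2:18839274-18839434): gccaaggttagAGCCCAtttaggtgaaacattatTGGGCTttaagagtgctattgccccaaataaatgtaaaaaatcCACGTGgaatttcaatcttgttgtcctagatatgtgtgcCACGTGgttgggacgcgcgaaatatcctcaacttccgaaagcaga
G3Pp4/AT4G17560 (chr4:9779940-9780223): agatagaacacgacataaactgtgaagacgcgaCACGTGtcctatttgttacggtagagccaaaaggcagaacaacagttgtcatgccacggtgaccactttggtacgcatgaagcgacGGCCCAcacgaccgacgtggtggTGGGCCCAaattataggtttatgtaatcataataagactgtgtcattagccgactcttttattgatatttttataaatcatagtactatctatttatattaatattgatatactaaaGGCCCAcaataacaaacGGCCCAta
AT5G52980/AT5G52990 (chr5:21483798-21483918): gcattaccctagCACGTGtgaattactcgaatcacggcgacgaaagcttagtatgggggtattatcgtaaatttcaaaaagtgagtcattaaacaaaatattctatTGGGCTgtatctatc
ILP1/FUG1 (chr1:5884774-5885006): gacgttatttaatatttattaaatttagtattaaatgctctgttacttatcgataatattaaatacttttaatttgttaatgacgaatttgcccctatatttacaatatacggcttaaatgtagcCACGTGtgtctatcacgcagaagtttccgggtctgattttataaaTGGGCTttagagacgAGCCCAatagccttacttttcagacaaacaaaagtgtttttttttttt
AT1G53325/AT1G53330 (chr1:19895734-19895966): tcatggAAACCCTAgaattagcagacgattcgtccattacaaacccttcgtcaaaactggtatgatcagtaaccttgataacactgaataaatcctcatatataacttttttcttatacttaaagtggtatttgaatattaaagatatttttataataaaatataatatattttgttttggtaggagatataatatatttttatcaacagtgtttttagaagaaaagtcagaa

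The third set gives 150 bp around the mean summit of a site. It holds the site with the highest fold rank among all divergent sites, in which none of the capitalised words occurred, the HFR1 gap, a heat shock gap with site II words, and a gap with a repeated GGNCCA word.
AT1G35150/GF14 PHI (chr1:12866877-12867026): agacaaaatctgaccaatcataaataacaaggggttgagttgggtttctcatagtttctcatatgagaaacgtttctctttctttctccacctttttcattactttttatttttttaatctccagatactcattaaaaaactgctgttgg
HFR1/AT1G02350 (chr1:468941-469090): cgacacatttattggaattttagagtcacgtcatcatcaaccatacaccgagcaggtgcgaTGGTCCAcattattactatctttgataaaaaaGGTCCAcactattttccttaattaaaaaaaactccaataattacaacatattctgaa
AT2G29500/AT2G29510 (chr2:12634130-12634279): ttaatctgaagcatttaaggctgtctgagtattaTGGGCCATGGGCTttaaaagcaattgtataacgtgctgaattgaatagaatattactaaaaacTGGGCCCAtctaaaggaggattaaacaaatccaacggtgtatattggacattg
AT1G52790/AT1G52800 (chr1:19663569-19663718): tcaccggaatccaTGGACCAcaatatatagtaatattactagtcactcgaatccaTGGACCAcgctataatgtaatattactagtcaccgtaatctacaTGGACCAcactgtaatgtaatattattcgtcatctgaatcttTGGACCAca

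SOB3 peaks were more frequent in divergent gaps than in gaps of the other orientations, at every length. In gaps of at most 250 bp, 34.2% ± 3.93 of 931 divergent gaps had a peak in a list (SD, n = 9 lists), against 17.5% ± 2.08 of 3153 tandem gaps, whose genes point the same way. Convergent gaps of that length, which hold 2 gene ends and no TSS, had a peak in 3.11% ± 0.181 of 1467. Between 251 and 500 bp the shares were 53.6% ± 4.13 for divergent gaps, 34.7% ± 3.08 for tandem gaps and 15.1% ± 1.39 for convergent gaps. Between 501 and 1000 bp they were 57.7% ± 4.00, 37.9% ± 2.55 and 22.5% ± 1.33 in the same order. The longest class, 1001 to 2000 bp, reached 64.2% ± 3.29, 45.2% ± 2.65 and 41.3% ± 2.14. Divergent gaps stood above tandem gaps in 9 of 9 lists in each of the 4 classes.

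Averaged over the 4 classes, the share of gaps with a peak was 18.6 ± 1.37 percentage points higher in divergent than in tandem gaps (SD, n = 9 lists). The smallest difference in a list was 15.6 points and the largest 20.2. An exact permutation test that flips the sign of the list differences gave p = 0.00391 (two-sided), the smallest that 9 lists can give. Against convergent gaps the difference was 31.9 ± 2.63 points (exact sign-flip permutation test, p = 0.00391). The 9 lists share most of their sites, so these p-values speak for the lists and not for independent sets of gaps. The plot of gaps with a peak shows all lists.

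**Figure D1:**
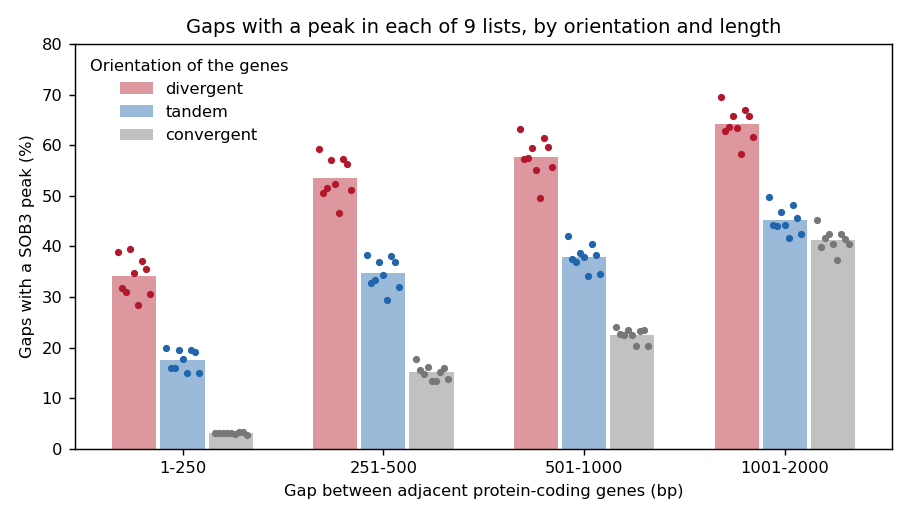
Share of gaps between adjacent protein-coding genes that held a SOB3 peak, in percent, by gap length in bp and gene orientation. Bars are means over 9 lists and points are the lists. The divergent bars stand at 34.2%, 53.6%, 57.7% and 64.2% and the tandem bars at 17.5%, 34.7%, 37.9% and 45.2%.

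A divergent gap has a TSS at both edges and a tandem gap has 1, so shares were also taken per TSS, a comparison chosen after seeing the data. A TSS was counted if a summit lay within 250 bp on either side. In gaps of 1001 to 2000 bp, 38.7% ± 2.73 of 2148 divergent TSSs had a summit, against 33.1% ± 1.84 of 2179 tandem TSSs (SD, n = 9). The difference was 13.4 ± 2.14 points in the shortest class and 4.86 ± 0.684 points between 251 and 500 bp. In both of these classes a single summit can count for both TSSs. The difference was 4.20 ± 1.13 points between 501 and 1000 bp and 5.63 ± 1.37 points in the longest class. Its mean over the 4 classes was 7.02 ± 0.834 points (two-sided exact sign-flip permutation, p = 0.00391), with the higher share on the divergent side in every list. Counted per TSS, the difference from tandem genes was thus smaller than counted per gap.

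Summits in divergent gaps lay close to the TSSs. The median distance from the mean summit of a site to the nearer TSS was 94.0 bp over all 2624 sites. Within 250 bp of a TSS lay 80.3% of the summits in gaps of 501 to 1000 bp and 61.7% of those in gaps of 1001 to 2000 bp, while in shorter gaps a summit between the TSSs cannot lie farther away. In gaps of 1001 to 2000 bp, the median distance was 150 bp at 1143 divergent sites and 501.0 bp from the downstream TSS at 1629 tandem sites. A divergent site has the nearer of a pair of TSSs to be measured from, which shortens its distance. The first 100 bp upstream of the TSS held 33.2% of the summits in these long divergent gaps and 18.3% of those in long tandem gaps. A share of 20.1% fell in the central part of the long divergent gaps, when these were cut in 3 equal parts. The plot of summit positions shows the same fall over the bins next to the TSS.

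**Figure D2:**
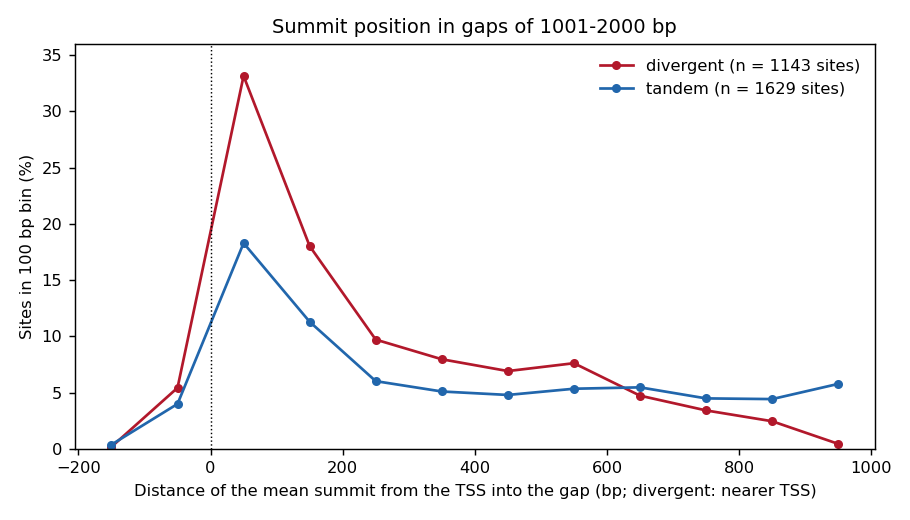
Percentage of sites per 100 bp bin of distance, in bp, from the TSS to the mean summit, in gaps of 1001 to 2000 bp. Divergent sites (n = 1143) are measured from the nearer TSS and tandem sites (n = 1629) from their single TSS at the gap. Both lines peak in the first 100 bp, at 33.2% and 18.3%.

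A short gap was usually covered whole. Of 437 sites in gaps of at most 250 bp, 386 (88.3%) reached over both TSSs, and 86 of 1143 (7.52%) did so in the longest class. A single site was found in 1865 gaps, 2 sites in 324 and 3 in 37. In 291 of the 324 gaps with 2 sites (89.8%), 1 site was nearer to each TSS. The median width of a site was 468 bp, against 448 bp over all nuclear sites.

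Assignment of a peak to the gene with the nearest TSS parted many of these pairs. The study also used the nearest TSS, while here only TSSs of protein-coding genes were considered. At 766 of the 2624 sites (29.2%), peaks of the site fell nearest to 1 gene of the pair in some instances and nearest to its partner in others. At the other 1858 sites all peaks were nearest to the same gene. Of 4134 flanking genes with the centre of a site within 1000 bp of the TSS, 643 (15.6%) were not the nearest gene to a peak in any list. A nearest-gene list made in this way leaves these 643 genes out, although a site stood in the promoter that they share. They were not compared with the study's own list of bound genes.

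Time points were alike in how many divergent sites they had, within the spread between lists. The ZT4 lists held 2241, 1932 and 1940 of the 2624 sites. At ZT9 there were 2118, 1946 and 1733, and the ZT24 lists had 2143, 2080 and 1870. The groups overlapped, and the lowest of all was a ZT9 list. Their means were 2038 ± 176, 1932 ± 193 and 2031 ± 143 (SD, n = 3 lists), and an exact permutation test of the F ratio gave p = 0.718. As a share of all sites in a list they were 9.99% ± 0.159 (SD, n = 9), and this share did not differ between time points either (exact permutation test, p = 0.961).

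Most of these sites were found again and again. In all 9 lists, 1371 of 2624 (52.2%) were present, where 46.8% of all nuclear sites were. In a single list there were 233 sites (8.88%), against 12.7% of all nuclear sites. The overlap of 2 lists, as the Jaccard index of divergent sites, was 80.3% ± 2.25 (SD) for the 9 pairs that shared a time point and 78.0% ± 2.78 for the 27 that did not. This gap of 2.38 points passed a one-sided exact permutation test, with p = 0.00357, the lowest value possible with 280 partitions. It did not pass when only peaks with −log10 q of 5 or more were kept (1.72 points, exact permutation p = 0.0571), nor with 10 or more (1.83 points, exact permutation p = 0.125). Lists of a time point would share their input, so the time point and the input cannot be told apart in this comparison.

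Fold enrichment, the height of the ChIP signal at the summit over the background in the authors' peak calls against input, was of ordinary size at divergent sites. Its median per list was 2.85 ± 0.128 at divergent sites and 2.81 ± 0.117 at all sites (SD, n = 9). To compare lists, each site was given its percentile by fold among the sites of its list. The median percentile of divergent sites was 51.3 ± 1.24 and that of tandem sites 49.3 ± 0.523 (SD, n = 9). The difference of 1.98 ± 1.16 percentile points had a positive sign in all but 1 list (two-sided exact sign-flip test by permutation, p = 0.00781). With a −log10 q of 5 or more it was 0.43 points (exact permutation p = 0.492) and with 10 or more 0.29 points (exact permutation p = 0.566), so the difference was not called without the weaker peaks. A mean percentile of 90 or more was reached by 151 divergent sites (5.75%), where 5.89% of all nuclear sites reached it.

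The 8 strongest divergent sites lay in gaps of 843 to 1760 bp. Over all divergent sites, the share at a mean percentile of 90 or more varied little with the length of the gap, from 4.58% in the shortest class to 6.39% in the longest. The site between AT1G35150, a gene for a zinc finger protein, and GF14 PHI, which encodes a 14-3-3 protein, had a fold of 12.2, 11.6 and 13.3 at ZT4, 10.1, 9.13 and 9.72 at ZT9, then 11.6, 13.9 and 12.7 at ZT24. The ZT9 lists were the lowest, and the mean percentile was 99.9 over the 9 lists. The site between AT4G12000 and AT4G12005, of a SNARE-associated Golgi protein and an uncharacterized one, followed with a fold of 13.2, 10.1 and 14.0 at ZT4, 9.97, 9.63 and 8.69 at ZT9, then 10.0, 10.1 and 10.4 at ZT24. All ZT9 folds lay below the others, and ZT4 and ZT24 overlapped. The highest fold at a divergent site averaged 10.2 over the ZT9 lists, against 12.9 at ZT4 and 12.7 at ZT24. By percentile within the list the order differed, with means of 99.97 at ZT4, 99.88 at ZT9, then 99.81 at ZT24, and no overlap. The change of fold rank did not pass (limma, adjusted p = 0.105). At AT3G23880/TOPII, an F-box gene beside the gene for DNA topoisomerase II, which relieves torsion in replicating DNA, the fold was 11.4, 9.20 and 10.3 at ZT4, 7.86, 8.63 and 7.16 at ZT9, then 11.5, 12.1 and 11.4 at ZT24. The ZT9 values lay below all others. The change of fold rank over the 3 time points did not pass (limma, adjusted p = 0.0515), while ZT24 against ZT9 alone did (limma, adjusted p = 0.0363).

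The site between AT3G54210, a ribosomal protein L17 gene, and SCARECROW (SCR), a GRAS factor of root and bundle sheath patterning, had a fold between 7.55 and 9.85 over the 9 lists. The other 4 of the 8 strongest lay at AT1G10740/AT1G10745 with a fold between 8.82 and 11.0, at AT5G15260/AT5G15265 with 7.63 to 10.6, at AT5G55520/AT5G55530 with 6.65 to 10.1 and at AT2G42030/AT2G42040 with 7.01 to 9.86. Their genes encode a hydrolase, a protein of the ribosomal L34e superfamily, a kinesin-like protein and a RING protein beside partners of little known role. None of the 8 sites passed the test for a changed rank over the 3 time points.

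The 4 shortest gaps had sites with mean percentiles from 31.8, at AT1G54050/ASIL1, to 79.7. AT1G19140 and Lhca6, the latter for a light-harvesting protein of photosystem I, have their TSSs 21 bp apart, and their site had a fold of 4.01, 3.28 and 3.47 at ZT4, 4.90, 3.84 and 4.27 at ZT9, then 4.99, 4.57 and 4.02 at ZT24. Its mean percentile was 79.7. The AT4G33400/SPPL1 gap, 39 bp long and next to a signal peptide peptidase gene, had a fold between 2.80 and 4.88. In the AT1G54050/ASIL1 gap of 44 bp, which joins a small heat shock protein gene to a gene for a trihelix repressor of seed programmes, the fold was between 1.96 and 3.42. The AT3G09850/AT3G09860 gap of 48 bp had a fold between 2.26 and 3.89. Among the sites in all 9 lists, the weakest stood at AT1G53340/AT1G53345 with a mean percentile of 12.7 and at CP29/AT3G53470 with 13.7. CP29 encodes a chloroplast RNA-binding protein.

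**Figure D3:**
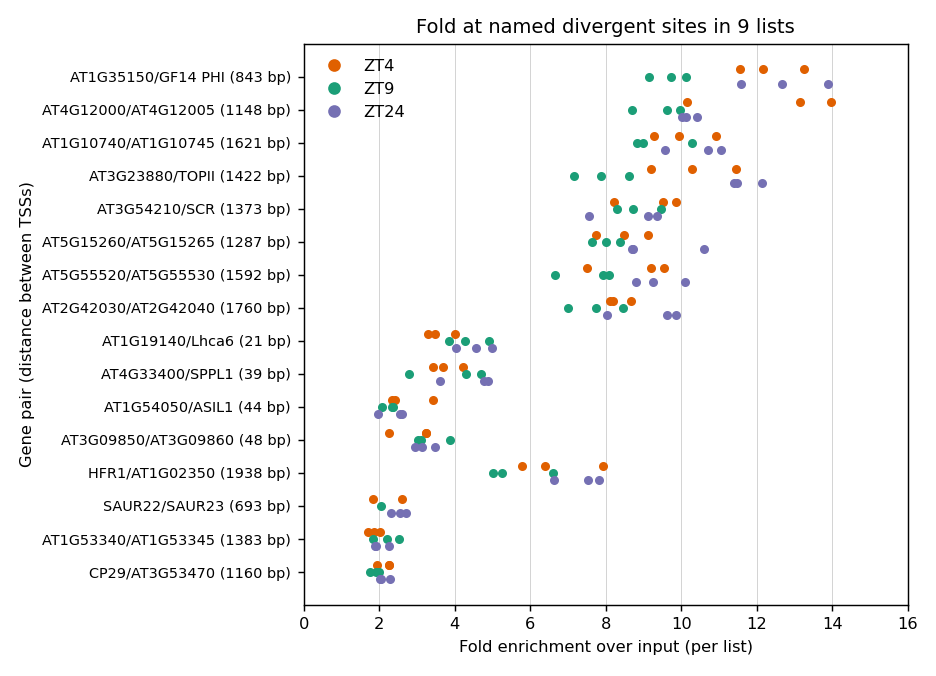
Fold enrichment over input at named divergent sites, one point per list, coloured by time point, with the distance between the TSSs in bp beside each pair. The 8 strongest sites lie between 6.65 and 14.0, the 4 shortest gaps between 1.96 and 4.99.

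Rank by fold enrichment changed between time points at 190 of the 1371 divergent sites that were in all 9 lists (limma on normal scores of the ranks, Benjamini-Hochberg adjusted p under 0.05 over all 13251 such sites). That is 13.9%, beside 14.6% of all sites tested. Between ZT9 and ZT4, 109 divergent sites were called (all sites, 8.32%), between ZT24 and ZT4 72 (all sites, 5.00%), or 30 with a replicate block (all sites, 2.43%), and between ZT24 and ZT9 116 (all sites, 8.99%). The share of divergent sites called was thus near that of all sites. The calls went both ways, with 54 higher and 55 lower at ZT9 than at ZT4. The count of 190 fell to between 103 and 119 when any 1 list other than the ZT4 replicate 3 was left out, and to 130 without that list. These counts were 7.47% to 9.25% of the divergent sites tested, and 7.33% to 9.32% of all sites tested were called. The fall was thus shared by all sites. Leaving out 1 list of either time point compared took the 109 to between 48 and 69, the 72 to between 10 and 27 and the 116 to between 35 and 57. For these pairs of time points the matching shares of all sites are not reported here.

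The pileup and background behind each fold, which the fold and the p-value together determine, were looked at beside it. Ranked by recovered pileup, 1 divergent site was called (all sites, 0.211%), and 35 of the 190 had an unadjusted p under 0.05. Ranked by −log10 p, 15 were called (all sites, 1.85%), and 170 of the 190 had an unadjusted p under 0.05. Over the 1371 sites, the rank correlation of the background between 2 lists averaged 0.75 within a time point, over 9 pairs, and 0.17 between time points, over 27 pairs. The rank correlation of the pileup averaged 0.88 within and 0.87 between. These correlations are across sites, which are not independent replicates. At 164 of the 190 sites (86.3%), the time point with the highest mean fold rank was the one with the lowest mean background rank, as it was at 73.7% of the 1371. It was the one with the highest mean pileup rank at 120 of the 190 (63.2%) and at 51.6% of the 1371. The fold is the pileup over the background, so part of both shares is built into the quantity. Time point and input cannot be told apart for the fold.

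Values are given next for the 6 divergent sites with the smallest adjusted p. AT1G75760/AT1G75770, beside a gene for a receptor that retains proteins in the endoplasmic reticulum, had a fold of 3.85, 3.00 and 3.86 at ZT4, 2.05, 1.82 and 1.62 at ZT9, then 2.31, 2.35 and 2.29 at ZT24. The 3 groups did not overlap (limma, adjusted p = 0.00383). The recovered background was 16.8 ± 2.45 fragments at ZT4 and 27.8 ± 0.457 at ZT9 (SD, n = 3), and the pileup was 62.0 ± 7.81 and 51.7 ± 5.51. By pileup rank the adjusted p was 0.321 (limma).

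At RPN1B/AT4G28480, a proteasome subunit gene beside a DnaJ chaperone gene, the fold was 4.15, 4.43 and 3.77 at ZT4, 2.34, 2.24 and 1.98 at ZT9, then 3.40, 3.22 and 3.35 at ZT24 (limma, adjusted p = 0.00443). The ZT9 lists were the lowest. Background was 17.3 ± 2.30 fragments at ZT4, 28.4 ± 2.66 at ZT9, then 17.9 ± 1.87 at ZT24 (SD, n = 3), and the pileup 74.7 ± 15.0, 63.0 ± 2.65 and 61.7 ± 6.51. G3Pp4/AT4G17560, a glycerol-3-phosphate permease gene and a ribosomal protein L19 gene, had a fold of 4.14, 3.47 and 3.54 at ZT4, 2.49, 2.08 and 2.03 at ZT9, then 3.92, 5.28 and 5.18 at ZT24 (limma, adjusted p = 0.00439). Its ZT9 lists were again the lowest, with a background of 33.6 ± 2.00 fragments against 20.4 ± 3.89 at ZT4 and 15.7 ± 2.20 at ZT24, and its pileup was 79.0 ± 18.7, 75.0 ± 4.36 and 78.0 ± 9.54 in the order of time.

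AT2G45730/PEX11D, an initiation factor subunit gene and a gene for peroxisome division, rose in rank at ZT24, with a fold of 3.63, 3.29 and 3.43 against 2.75, 2.37 and 2.67 at ZT4 and 2.00, 2.07 and 1.78 at ZT9 (limma, adjusted p = 0.00439). At AT1G17850/AT1G17860, a rhodanese gene and a trypsin inhibitor gene, ZT24 was the lowest with 2.37, 2.51 and 2.24, while ZT4 had 3.85, 3.11 and 3.51 and ZT9 had 4.19, 3.82 and 3.03 (limma, adjusted p = 0.00439). AT5G52980/AT5G52990 was lowest at ZT4, with 2.46, 2.14 and 2.03, against 3.79, 3.86 and 2.84 at ZT9, then 3.78, 3.80 and 3.12 at ZT24 (limma, adjusted p = 0.00444). Ranked by −log10 p, all 6 were called, with adjusted p-values of the limma fit between 0.0166 and 0.0443. Ranked by pileup, none was, with adjusted p-values between 0.321 and 0.998 (limma).

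**Figure D4:**
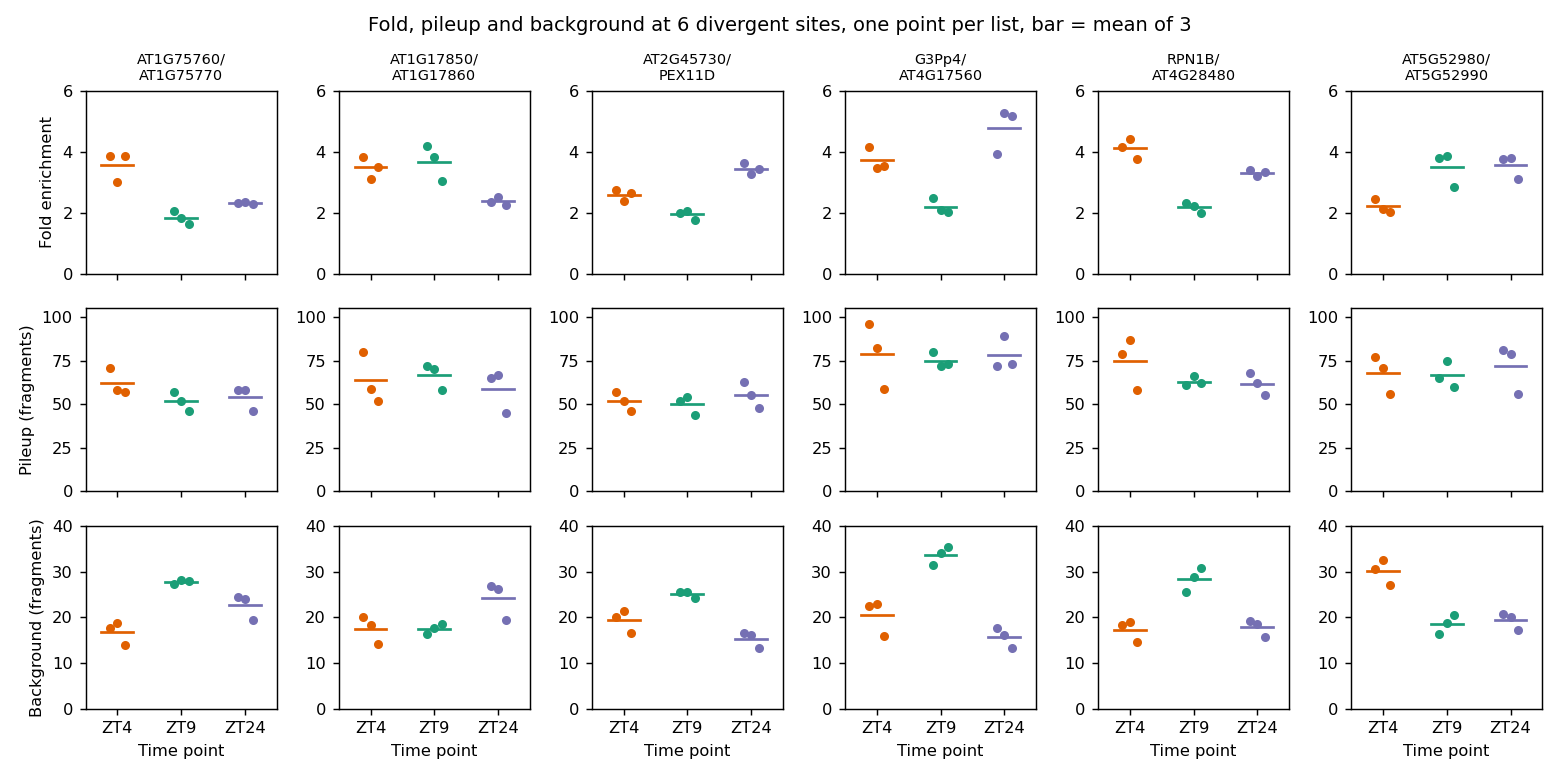
Fold enrichment, recovered pileup and recovered background (both in fragments per base) at the 6 divergent sites at which the fold rank changed with the lowest adjusted p, by time point. Points are lists and bars are means of 3. The fold is low where the background is high, as at RPN1B/AT4G28480 with a background of 28.4 at ZT9, while the pileups of the time points overlap.

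The single divergent site called by pileup rank over the 3 time points lay between OFP17 and OFP2, a pair of genes of the ovate family of transcriptional repressors, and is named here after its values were seen. Its pileup was 61, 47 and 46 fragments at ZT4, 58, 65 and 58 at ZT9, then 41, 44 and 34 at ZT24 (limma, adjusted p = 0.0462). All ZT24 values lay below the other 6 values. The fold was 3.16, 2.33 and 2.87 at ZT4, 3.27, 2.96 and 2.97 at ZT9, then 2.11, 2.40 and 2.22 at ZT24 (limma, adjusted p = 0.0135).

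Sites confined to a time point were few. In all 3 lists of 1 time point and in no other list were 17 of 2624 divergent sites (0.648%), beside 0.700% of all nuclear sites. They were 6 at ZT4, 5 at ZT9, then 6 at ZT24, and they were weak. AT3G48060/AT3G48070 had a fold of 2.51, 2.32 and 2.63 at ZT4. AT5G58330/AT5G58340, a malate dehydrogenase gene and a myb-like gene, had 2.52, 2.19 and 2.54 at ZT9, and SWAP70/AT2G30890 had 2.42, 2.22 and 2.58. NHX3/SVL1, with a sodium/proton exchanger gene, had 2.70, 2.37 and 2.31 at ZT24. Their mean percentiles were between 32.2 and 35.3. Time point and input cannot be told apart for the presence of these sites either.

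Short motif words differed in frequency between divergent and tandem sites. In windows of 300 bp around the summit, a site II word (TGGGCC or TGGGCT, either strand) was present in 42.0% ± 1.35 of the divergent sites of a list, 31.4% ± 1.10 of the tandem sites and 27.3% ± 0.841 of all sites (SD, n = 9). The difference from tandem sites was 10.6 ± 0.865 points. GGNCCA, which can be the same letters as TGGGCC, was present in 46.3% ± 1.02 of divergent, 39.6% ± 0.780 of tandem and 38.0% ± 0.720 of all sites. The G-box CACGTG was present in 13.9% ± 0.521, 11.5% ± 0.408 and 11.6% ± 0.470, and the telo box AAACCCTA in 6.85% ± 0.634, 4.44% ± 0.284 and 4.05% ± 0.201.

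Other words were less frequent at divergent sites. CACATG, another word that PIF proteins bind, was present in 13.8% ± 0.509 of divergent, 16.7% ± 0.407 of tandem and 18.0% ± 0.294 of all sites. An AT-rich word (AAATAAAA, AAATAATA, ATATAAAA or ATATAATA, either strand) was present in 49.5% ± 1.56, 51.0% ± 1.52 and 52.0% ± 1.48. ATATAAAA contains TATAAA. For these 6 motifs the difference had the same sign in all 9 lists (exact sign-flip permutation test with Benjamini-Hochberg adjustment over 7 motifs, adjusted p = 0.00456). The lists share most of their sites, and so most of these sequences. The p-values thus speak for the lists and not for independent sets of sites. The TATA word TATAAA, at 50.1% ± 0.847 and 50.6% ± 1.25, did not pass (exact sign-flip permutation test, adjusted p = 0.105), and its difference of -0.49 points had a positive sign with gaps up to 1000 bp, sites placed by summit or 100 bp windows. Windows at divergent sites held 33.6% ± 0.261 G and C and those at tandem sites 32.7% ± 0.284, and the part of base composition in the motif shares was not tested.

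**Figure D5:**
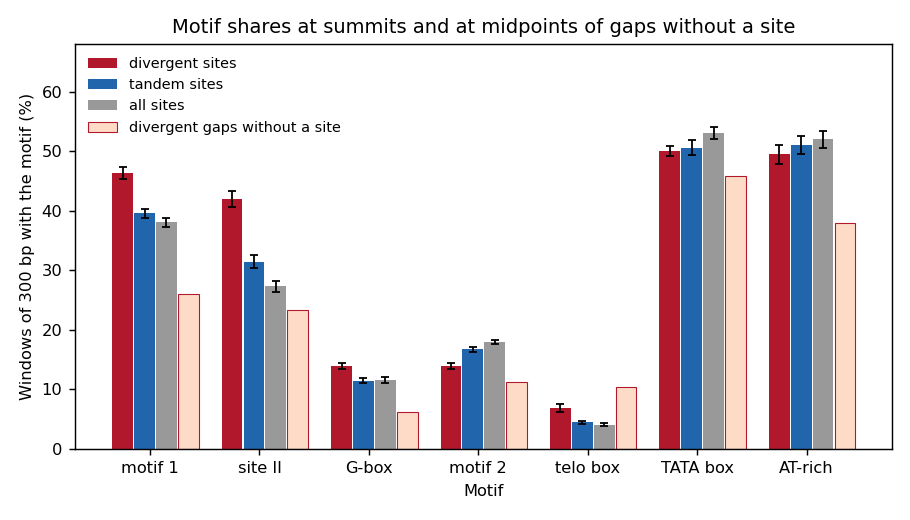
Share of 300 bp windows, in percent, that held each motif on either strand, at summits of divergent, tandem and all sites (bars are means and error bars SD over 9 lists) and at the midpoints of 1185 divergent gaps without a site. Motif 1 is GGNCCA and motif 2 is CACATG. Site II words stand at 42.0% at divergent, 31.4% at tandem and 27.3% at all sites. Midpoints and summits are different positions in a gap.

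Divergent gaps without a site held most words less often at their midpoints than all divergent gaps did at theirs. At the midpoints of the 1185 gaps without a site, 300 bp windows held a site II word in 23.4%, GGNCCA in 26.1%, a G-box in 6.24%, CACATG in 11.1% and an AT-rich word in 38.0%. The telo box went the other way, with 10.4% at these midpoints. Over the midpoints of all 3411 divergent gaps the shares were 27.3% for site II, 30.5% for GGNCCA, 7.62% for the G-box and 7.09% for the telo box. For CACATG the share there was 12.7% and for AT-rich words 42.3%. A midpoint is another position than a summit, so the midpoint shares are not a like comparison for the shares at summits. Gaps without a site were shorter, with a median of 390.0 bp against 747.0 bp, so more of their windows reached into the genes.

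Motifs also varied among divergent sites. With windows at the mean summit, site II words were present in 56.3% of the sites in gaps of at most 250 bp and in 29.8% of those in gaps of 1001 to 2000 bp. The telo box was present in 15.6% and 4.55% in the same comparison, and the G-box in 18.1% and 11.1%. CACATG ran the other way, from 7.09% in the shortest gaps to 15.3% in the longest. A window of 300 bp is longer than a gap of at most 250 bp and reaches into the genes. Words counted in the shortest class can thus lie outside the stretch between the TSSs. AT-rich words rose from 40.4% at sites under a mean fold percentile of 25 to 57.5% at sites over 75, while the telo box stood at 7.81% and 2.78%. At sites in all 9 lists the telo box share was 4.45%, and at sites in fewer lists 9.42%. These are descriptions of 2624 sites, given without a test.

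Gene families differed in how often their shared promoters held a site, again as counts without a test. Gap lengths were not matched between families. Of divergent gaps up to 250 bp, 46.9% had a site, and of those of 1001 to 2000 bp, 75.5% did. Over all divergent gaps, 65.3% had a site in at least 1 list and 37.3% a site in all 9. Ribosomal protein genes flanked 144 gaps, of which 91 (63.2%) had a site and 41 (28.5%) a site in all lists. Of the sites in these gaps, 61.2% held a site II word and 38.8% a telo box, where 39.8% and 6.82% of all divergent sites did. Heat shock protein genes, whose products hold other proteins in shape, flanked 52 gaps and 39 (75.0%) had a site. Genes of photosystems and light harvesting flanked 24 gaps, of which 18 (75.0%) had a site, and kinase genes 294, of which 211 (71.8%) did. F-box genes, for the substrate-binding part of ubiquitin ligases, flanked 152 gaps and 78 (51.3%) had a site. Pairs whose 2 genes have the same product name, such as the neighbouring SAUR genes, numbered 69 and 32 (46.4%) had a site. Unique mapping leaves out reads that near-identical copies share, which can lower the count in such pairs, but this was not tested.

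In the remaining lists the share of gaps with a site was 69.6% of 23 for histone genes, 54.5% of 99 for pentatricopeptide repeat genes, which edit and process organelle RNA, and 69.8% of 172 for transcription factor genes. It was 64.3% of 98 for ubiquitin genes, 69.0% of 29 for auxin genes, 61.5% of 26 for cytochrome P450 genes and 65.7% of 35 for translation factor genes. RNA-binding or splicing genes had 61.8% of 89 and tRNA ligase genes 71.4% of 42. A gap can stand in several lists. Called for a changed fold rank were 9 of 46 sites tested beside ribosomal protein genes, 21 of 151 beside kinase genes and 13 of 79 beside transcription factor genes, against 190 of 1371 overall.

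By mean fold percentile over the 9 lists, the transcription factor, F-box and ribosomal protein lists reached 99.9, 99.7 and 99.5. Those sites are among the 8 strongest named above. The strongest sites of the other families were the following. Beside photosystem genes, PSBQ-2/ATK5 had a mean fold percentile of 96.9 and AT1G76440/AT1G76450 one of 93.4. PSBQ-2 encodes a subunit of the oxygen-evolving part of photosystem II and ATK5 a kinesin. Of the pentatricopeptide genes, AT1G53325/AT1G53330 was at 98.2 and MRL1/AT4G34840 at 93.9, the latter in a gap of 80 bp. Kinase gaps were led by CRK18/CRK19, 2 receptor-like kinase genes, at 97.5 and AT3G63270/NEK4 at 97.1. ALDH12A1/UBC3, an aldehyde dehydrogenase gene and a ubiquitin-conjugating enzyme gene, reached 99.2.

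Beside heat shock genes, AT1G21080/AT1G21090 was at 96.6 and AT2G29500/AT2G29510 at 95.0. The translation factor gene FUG1, which starts translation in chloroplasts, shares its promoter with ILP1, and the site there was at 94.5, while AT2G36885/RAX2 was at 91.8. RNA-binding genes were led by AT2G33400/AT2G33410 at 93.7 and AT1G15800/AT1G15810 at 92.5. Histone gaps had AT5G19490/AT5G19500 at 87.4 and AT3G53640/AT3G53650 at 79.6, and cytochrome P450 gaps CYP76C3/AT2G45590 at 93.4 and AT4G39470/CYP96A9 at 77.1. The tRNA ligase gaps had AT1G17960/AT1G17970 at 89.5 and AT3G16565/RALF23 at 76.6. RALF23 encodes a peptide that halts cell growth in seedlings.

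Of 27 loci of the study's growth pathway, HFR1 and SAUR22 flank divergent gaps, as do 6822 of all 27444 protein-coding genes. HFR1, a bHLH protein that holds PIF factors from DNA and so restrains elongation, is 1938 bp from AT1G02350. The site between them was in all 9 lists, with a fold of 7.93, 5.78 and 6.40 at ZT4, 6.60, 5.25 and 5.03 at ZT9, then 7.52, 6.62 and 7.81 at ZT24. The time points overlapped, and the change in rank did not pass (limma, adjusted p = 0.371). The mean summit of the site lay 1136 bp from the HFR1 TSS and 802 bp from that of AT1G02350, the nearer gene.

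SAUR22 and SAUR23, which belong to a family of auxin-induced proteins that promote cell expansion, have their TSSs 693 bp apart. Their site was in 6 of 9 lists, at a fold of 1.85 and 2.60 in 2 ZT4 lists, 2.05 in 1 ZT9 list and 2.71, 2.55 and 2.31 at ZT24. It was weak in each, and missing lists are lists without a called peak. Stronger sites stood beside other SAUR genes, at AT4G34780/AT4G34790 with a mean percentile of 96.4 and at ASE2/AT4G34750 with 91.2. AT1G52790/AT1G52800, a pair of genes for oxygenases of the same kind, was at 94.7.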

How the data were processed

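The authors converted the reads with bcl2fastq, mapped single reads uniquely to TAIR10 with Bowtie and called peaks in each ChIP sample with MACS2 against input. Versions are not given in the sources used here. Which input was used for which list is not given. The deposited lists give each peak's interval and summit, its fold enrichment over background, the −log10 p-value and −log10 q-value, and a score that was not used. The study gives depth as a range for the samples together, and the lists hold no read totals. Their lowest recovered background was between 12.1 and 15.8 fragments per base, the measure of depth per list used here.

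The 206263 nuclear peaks were merged into sites, and 296 organelle peaks were left out. A gap was the stretch between neighbouring genes of the RefSeq annotation of TAIR10.1, with the outermost TSS of each gene. Pileup and background were solved from fold and −log10 p, and a whole-number pileup matched the deposited −log10 p within 0.001 at 100% of peaks. Site centres decided membership. The best peak of a list stood for the site. Exact permutation tests were over the 280 partitions of the lists or, for paired differences, over 512 sign flips. Ranks at sites in all 9 lists were turned into normal scores and fitted with limma 3.58.1 in R 4.3.3. The pileup recovery, the limma fit and the F-ratio and sign-flip permutation tests were tried on simulated data, and the other steps were not. Alternatives were stricter −log10 q, other gap and TSS definitions, other ranked quantities, a replicate block and leaving out each list.

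Named sites were the 8 highest and 3 lowest by mean fold percentile among those in all 9 lists, the 6 with the smallest adjusted p, 4 confined to a time point, the 4 shortest gaps, the growth genes and the 2 highest of each gene list. Of the 3 lowest, 1 is not reported here. Gene lists were drawn by words in RefSeq product names. The members and lists were chosen with earlier results of these data known. Replicates are separate samples of a time point, and tests between time points set differences against the spread between them. The sign-flip p-values, also those for the percentile and per TSS, measure the spread between the 9 lists. These lists share most of their sites.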

Additional observations from a re-analysis of the deposited data

How the results depend on the processing

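Keeping only peaks with −log10 q of 5 or 10 and more took the percentile difference from tandem sites to 0.43 and 0.29 points and the Jaccard difference to 1.72 and 1.83 points, neither of them called, and at 5 the TATAAA difference of -0.73 points passed (exact permutation, adjusted p = 0.0273). The 190 divergent sites with a changed fold rank became 110 with gaps up to 1000 bp (all sites, 14.6%), which leaves fewer sites to test. By −log10 p rank there were 15 (all sites, 1.85%) and by pileup rank 1 (all sites, 0.211%). With a list left out there were 103 to 130 (all sites, 7.33% to 9.32%). Apart from the first, the cause of these falls was not tested. The replicate block gave 145 such sites, or 10.6% of those tested (all sites, 10.6%). With the replicate block, the Jaccard difference kept its call (exact permutation p = 0.0278). Deviations of same-numbered lists correlated between -0.05 and 0.06 over 13251 sites, so the numbers were not taken to pair the samples. The share of gaps with a peak kept its call and sign under the alternatives run, as did all motifs but TATAAA. The sizes varied. Counted per gap, the difference from tandem gaps ran from 10.5 points at −log10 q of 10 or more to 20.5 with all gaps pooled. From convergent gaps it was 16.9 and 38.4 points under the same alternatives. The telo box difference ran from 0.22 points in 100 bp windows to 3.63 with gaps up to 1000 bp. For AT-rich words it ran from -0.59 points in 100 bp windows to -2.79 at −log10 q of 10 or more. Leaving out a list gave differences from tandem gaps of 18.2 to 18.8 points, from convergent gaps of 31.5 to 32.3 points and in percentile of 1.75 to 2.28 points. A missing peak at a site was not read as absence of binding, and the effect of depth on weak sites was not tested.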
